A study of Homo sapiens with 18 samples.

Results

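Messenger RNA of 10 Kruppel-like factors was followed in the human liver cancer cell line Hep3B, which was loaded with free fatty acids (FFA) and treated with fucoxanthin (FUCO) or Resmetirom (RES). The genes were KLF2, KLF3, KLF4, KLF5, KLF6, KLF7, KLF10, KLF11, KLF13 and KLF15, taken by their symbols from a count table of 36684 genes. The table holds 18 KLF genes, of which 13 passed the filter on low counts, and all 10 chosen genes were among these 13. The genes were chosen by family name with their measured levels and fold changes between these groups known, so every contrast counts as used and all values of the 10 genes are given as a description, without a p-value.

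Poly(A) RNA was sequenced from 6 groups of 3 libraries, which the study calls biological replicates. Con was the control, Model received FFA, and FUCO-0.5, FUCO-1 and FUCO-2 received FFA with 0.5, 1 or 2 μM fucoxanthin, a carotenoid of brown seaweed. RES received FFA with Resmetirom, an agonist of thyroid hormone receptor beta that served the study as positive control. All groups came from the same cell line, and the FFA concentration, the treatment times and the dose of Resmetirom are not stated for this sequencing. A library held between 16916688 and 23083498 counts, and levels are given in CPM (counts scaled by library total and TMM factor), as mean ± SD of 3 libraries. All 9 hepatocyte markers examined, among them ALB and HNF4A, had a mean of at least 1 CPM in every group, and in Con so did 3 of 5 fibroblast or stellate markers and 2 of 5 leukocyte markers but 0 of 5 endothelial markers, of which 3 had no count.

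Kruppel-like factors are zinc finger transcription factors that bind GC boxes and CACCC boxes through a conserved C-terminal domain, and differ in their N-terminal parts. One subgroup, with KLF2, KLF4, KLF5, KLF6 and KLF7, recruits acetyltransferases and often activates genes. KLF3 recruits the corepressor CtBP, and KLF10, KLF11 and KLF13 recruit the corepressor SIN3A, while KLF15 stands outside these subgroups. In the liver KLF6 is known as a factor induced early in injury and growth, and KLF15 as a fasting factor that acts on amino acid breakdown and gluconeogenesis.

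The promoters of KLF2, KLF6 and KLF15 are shown because KLF2 and KLF6 had the lowest fitted values against Model at every dose of fucoxanthin, and KLF15 the highest value at 2 μM. Each line gives the 250 bases before the RefSeq transcription start in GRCh38.p14, 5′ to 3′ on the strand of the gene. KLF2 lies at chr19:16324576-16324825 on the plus strand, KLF6 at chr10:3785210-3785459 on the minus strand, and KLF15 at chr3:126357409-126357658 on the minus strand. Capitals mark an EGR site in KLF2 and KLF6, a MEF2 site in KLF2 and the E-box CACGTG in KLF6 and KLF15.
KLF2: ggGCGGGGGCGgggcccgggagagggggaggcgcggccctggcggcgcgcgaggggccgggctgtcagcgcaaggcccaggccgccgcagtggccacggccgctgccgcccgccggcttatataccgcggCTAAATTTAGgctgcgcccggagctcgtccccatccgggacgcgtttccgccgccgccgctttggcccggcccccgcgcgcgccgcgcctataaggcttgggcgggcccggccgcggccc
KLF6: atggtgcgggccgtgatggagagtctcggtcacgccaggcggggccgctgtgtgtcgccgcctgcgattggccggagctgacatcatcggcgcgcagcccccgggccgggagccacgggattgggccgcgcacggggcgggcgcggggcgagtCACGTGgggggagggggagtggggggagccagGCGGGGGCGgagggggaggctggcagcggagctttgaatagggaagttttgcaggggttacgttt
KLF15: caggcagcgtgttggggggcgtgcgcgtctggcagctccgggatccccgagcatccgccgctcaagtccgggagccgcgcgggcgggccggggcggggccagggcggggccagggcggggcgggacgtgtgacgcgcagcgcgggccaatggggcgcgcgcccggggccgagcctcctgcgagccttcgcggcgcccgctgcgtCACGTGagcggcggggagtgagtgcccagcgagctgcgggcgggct
The sites were searched as letters on both strands of windows from 250 bases before to 50 bases after each listed start, in 13 promoters of 8 of the genes and 35116 promoters in all. KLF3 and KLF10 were not searched. The EGR site, spelled GCGTGGGCG or GCGGGGGCG, was found in KLF2 from −248 to −240 and in KLF6 from −65 to −57, and in 5.77% of all promoters. The MEF2 site of KLF2, a motif bound by the MEF2 factors that drive KLF2 in endothelium, lay from −120 to −111 and occurs in 0.572% of all promoters. The E-box was found in 5 of the 13 promoters, those of KLF4, KLF6, KLF7, KLF11 and KLF15, and in 7.26% of all. Of the sites that Kruppel-like factors themselves bind, GC boxes stood in 9 of the 13 promoters and in 45.0% of all, and the CACCC box, searched as CACCC, in 7 of the 13 and in 59.9% of all. The GC boxes overlap the EGR site in KLF2 and KLF6. The GC content was 80.7% in KLF2, 80.3% in KLF15 and 70.7% in KLF6, against a median of 58.7%. Other motifs were searched too: the cAMP response element TGACGTCA stood in 1 of the 13 promoters, of KLF11, against 1.85% of all, and the CArG box in 1, of KLF7, against 1.29%. The AP-1 site TGACTCA, the FOXO site GTAAACA, the ETS site CCGGAAG and the SMAD site GTCTAGAC stood in none of these 13 windows. The 6 letters of the GC box were GGGCGG. All matches describe letters and not binding.

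**Figure D1:**
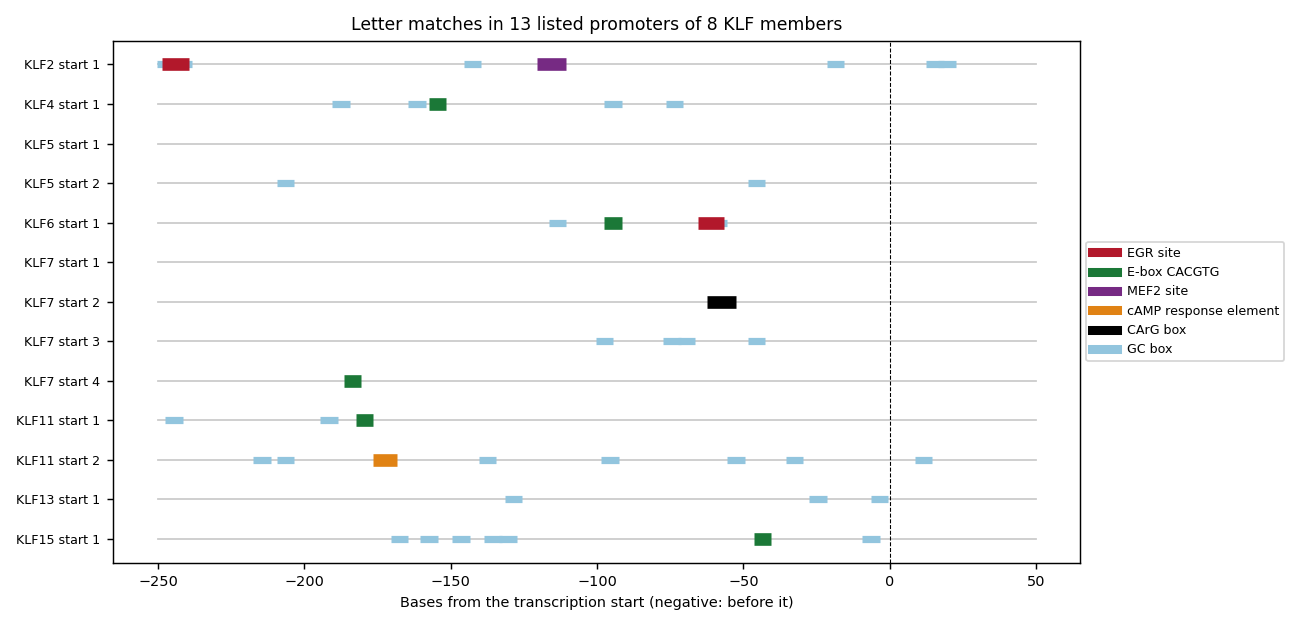
Letter matches in the 13 listed promoters of 8 Kruppel-like factors, drawn by their distance in bases from the transcription start (horizontal axis, negative values before the start), with 1 row per listed start. The EGR site is seen in KLF2 and KLF6 only among these promoters, and the MEF2 site in KLF2 only.

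KLF2, a factor of quiescence in endothelium and T cells, had the widest range of the 10 genes. Its level was 40.9, 21.0 and 23.1 CPM in the Con libraries, 44.3, 49.7 and 43.2 CPM in Model, and 31.7, 39.7 and 33.1 CPM in RES. With fucoxanthin it was 10.8, 11.2 and 11.1 CPM at 0.5 μM, 5.99, 6.83 and 7.83 CPM at 1 μM, and 12.9, 7.82 and 10.9 CPM at 2 μM. All 9 fucoxanthin libraries lay below every Con library, and every Model library lay above every Con library, although Con replicate 1 came close to Model. Over the 14557 genes past the filter, the libraries of Model and Con did not overlap for 35.7%. Against Model this share was 19.6%, 23.3% and 36.3% at 0.5, 1 and 2 μM and 64% with RES. Against Con it was 35.2%, 30.1%, 33.9% and 64.6% in the same order. Groups without overlap are a description here and below, to be read beside these shares. FUCO-1 had the lowest mean, but its libraries overlapped those of FUCO-2 and RES overlapped Con. The mean of FUCO-1 was 15.1% of that of Model and 24.3% of that of Con, and the ratio of the highest to the lowest group mean was 6.64.

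KLF6, the most abundant of the 10 genes per length at 81.5 CPM per kb of exon, followed a similar order on a smaller scale. Its level was 613, 487 and 499 CPM in Con, 818, 982 and 859 CPM in Model, and 539, 533 and 464 CPM in RES. With fucoxanthin it was 440, 460 and 367 CPM at 0.5 μM, 285, 281 and 271 CPM at 1 μM, and 339, 388 and 379 CPM at 2 μM. Model stood above all other libraries and FUCO-1 below all others, without overlap, while FUCO-0.5 and FUCO-2 overlapped each other and both lay below Con. The mean of FUCO-1 was 31.5% of that of Model and 52.3% of that of Con. In bulk RNA, a lower level of this kind in every cell and fewer cells with the transcript cannot be told apart.

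KLF4, a factor of epithelial differentiation and of reprogramming to pluripotency, was the least abundant, at 0.957 CPM per kb and with 20 to 177 counts per library. Its level was 1.73, 4.0 and 5.41 CPM in Con, 2.58, 2.78 and 2.44 CPM in Model, and 6.30, 9.53 and 6.67 CPM in RES. With fucoxanthin it was 1.10, 1.52 and 2.07 CPM at 0.5 μM, 1.49, 2.13 and 1.26 CPM at 1 μM, and 3.23, 3.19 and 5.67 CPM at 2 μM. The RES libraries were higher than all other 15, the FUCO-0.5 and FUCO-1 libraries were lower than Model, and Con spanned the whole range of Model. KLF5, a factor of proliferation in gut epithelium, differed the least, from 8.79 ± 1.34 CPM in Con to 12 ± 0.852 CPM in FUCO-0.5, with a ratio of 1.36. KLF7, a factor of neurons and of fat cell precursors, was at 32.5 ± 3.59 CPM in Con and 32.6 ± 1.29 CPM in Model and at 29.9 ± 1.84, 25 ± 1.45 and 22.8 ± 1.69 CPM at the rising doses of fucoxanthin. The KLF7 libraries of FUCO-1 and FUCO-2 lay below all Model libraries but overlapped each other, and RES was lowest at 15 ± 1.11 CPM without overlap with any group.

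KLF3, the CtBP-binding repressor of the set, was highest in Con at 161 ± 10.3 CPM. Model, FUCO-0.5 and FUCO-1 had 136 ± 4.57, 139 ± 9.65 and 134 ± 10.3 CPM and overlapped one another. FUCO-2 had 121 ± 6.11 CPM and lay below Model, and RES was lowest at 87.7 ± 3.41 CPM without overlap. Of the genes past the filter, 36.3% did not overlap between FUCO-2 and Model and 64% between RES and Model. The gene overlaps its antisense neighbour KLF3-AS1, whose reads cannot be told apart if the counting did not use the strand.

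Among the SIN3A-binding repressors, KLF10, known as an early gene induced by TGFβ, varied most. It was measured at 87.9, 87.2 and 91.9 CPM in Con, 116, 134 and 130 CPM in Model, and 190, 196 and 161 CPM in RES. With fucoxanthin it was 64.6, 69.1 and 60.8 CPM at 0.5 μM, 63.9, 54.6 and 55.4 CPM at 1 μM, and 75.1, 113 and 84.6 CPM at 2 μM. The libraries of RES lay above all others, Model came next, and FUCO-0.5 and FUCO-1 lay below Con, whereas FUCO-2 was spread across the level of Con. Its close relative KLF11 had 14.4 ± 3.01 CPM in Con and 14.7 ± 1.51 CPM in Model, against 9.95 ± 0.938, 8.60 ± 0.379 and 8.91 ± 0.600 CPM at the rising doses and 6.67 ± 0.426 CPM with RES. No KLF11 library with fucoxanthin or RES reached the level of any Con or Model library. KLF13, which acts in lymphocyte chemokine expression, ran from 84.4 ± 10.4 CPM in Con to 51.5 ± 3.71 CPM in RES, and its other groups lay between 66.7 ± 0.717 and 73.7 ± 1.18 CPM.

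KLF15 had an order of its own. Its level was 29.0, 23.4 and 22.3 CPM in Con, 13.2, 13.7 and 15 CPM in Model, and 7.55, 8.67 and 5.41 CPM in RES. With fucoxanthin it was 13.4, 12.5 and 12.1 CPM at 0.5 μM, 19.4, 15.7 and 19.0 CPM at 1 μM, and 29.0, 28.0 and 23.7 CPM at 2 μM. Model lay below Con without overlap, FUCO-0.5 overlapped Model, FUCO-1 stood between Model and Con, and FUCO-2 overlapped Con. The mean of FUCO-2 was 192.3% of that of Model and 108% of that of Con, and RES was lower than every other library at 51.6% of the Model mean.

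**Figure D2:**
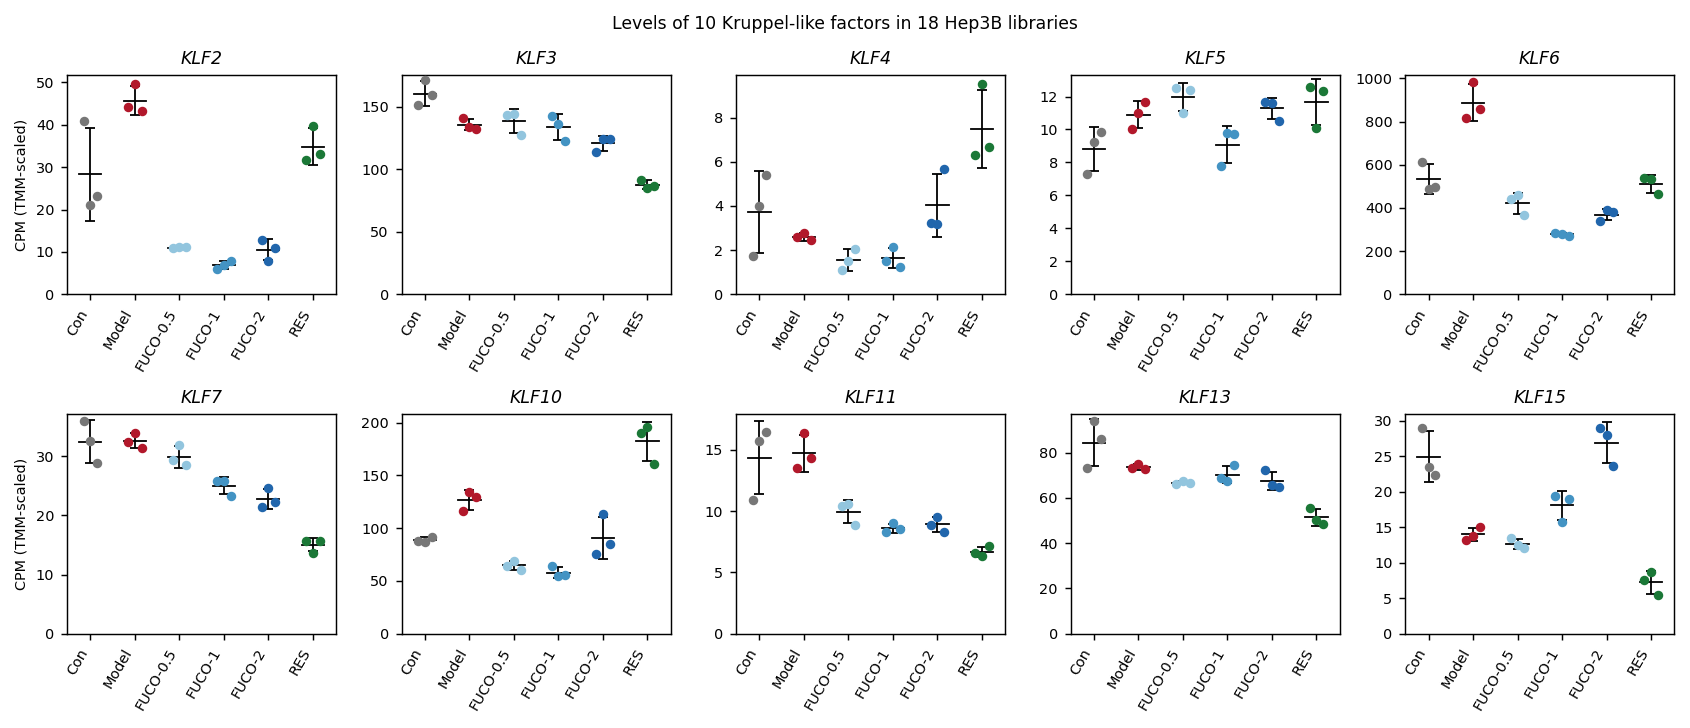
Levels of the 10 Kruppel-like factors in CPM (vertical axis, linear and from 0, with a scale per gene) in the 18 libraries, grouped as Con, Model, FUCO-0.5, FUCO-1, FUCO-2 and RES. Points are libraries, and the horizontal line and bars give the mean ± SD of 3. KLF2 and KLF6 peak in Model and are lowest in FUCO-1, and KLF15 is highest in FUCO-2 and Con and lowest in RES.

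Per kb of exon, the order of the mean levels over all libraries was KLF6 with 81.5, KLF10 with 26.7, KLF3 with 19.1, KLF2 with 8.12, KLF13 with 7.32, KLF15 with 6.14, KLF5 with 2.88, KLF7 with 2.74, KLF11 with 2.29 and KLF4 with 0.957 CPM per kb. Con had the widest spread between replicates for 7 of the 10 genes (KLF2, KLF4, KLF5, KLF6, KLF7, KLF11 and KLF13), with a coefficient of variation of 49.9% for KLF4 and 38.6% for KLF2. Across the 18 libraries, Pearson's r on log2 CPM was 0.92 between KLF3 and KLF7, 0.90 between KLF2 and KLF6 and 0.88 between KLF3 and KLF13, and the lowest was −0.66 between KLF4 and KLF7. The libraries share their groups, so these values describe likeness over 6 conditions more than over 18 points.

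**Figure D3:**
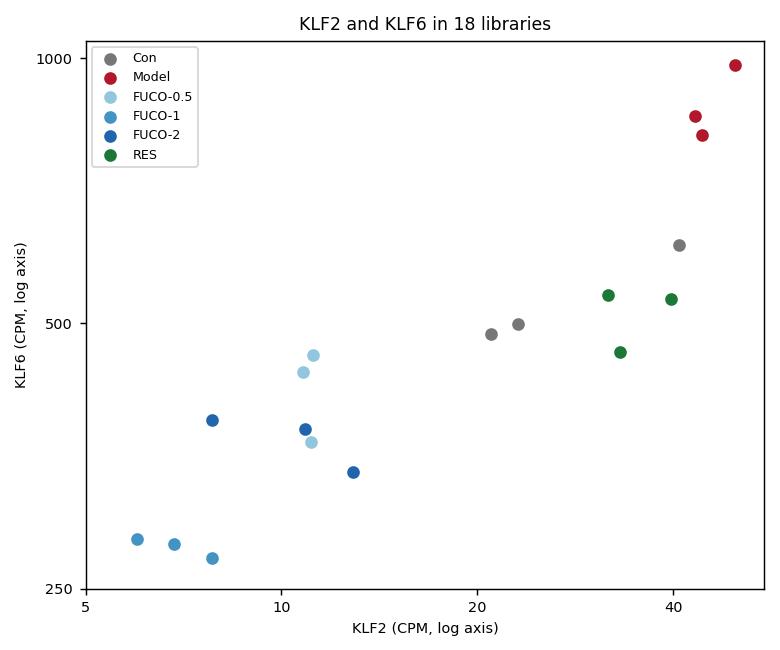
KLF2 (horizontal axis) against KLF6 (vertical axis) in CPM, both on log axes, for 18 libraries coloured by group. The 3 Model libraries stand at the upper right, the 3 FUCO-1 libraries at the lower left, and the Con and RES libraries lie between them and Model, above the other fucoxanthin libraries.

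By the likeness of log2 CPM over the 18 libraries, among 10925 genes with a mean of at least 5 CPM, CITED2 and JUN came closest to KLF2, each with r = 0.96, followed by TRIB1 with r = 0.95. For KLF6 the closest were RHOB and TRIB1, each with r = 0.92, and PLK2 with r = 0.91. For KLF10 they were MCL1 with r = 0.96 and HERPUD1 and PHLDA1, each with r = 0.94. KLF15 was closest to TNFRSF14 with r = 0.96, SH2D5 with r = 0.95 and CDK5RAP2 with r = 0.94. KLF7 was closest to CDH10, with r = 0.98, and to IL1RAP and TRIM24, each with r = 0.97. For KLF11 the values were 0.94 for DUSP4 and 0.91 for both INO80C and MYLIP. KLF4, whose counts are low, reached 0.90 with VLDLR and GLRB and 0.89 with DESI2.

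The first comparison, Model against Con, asks what fatty acid loading does to these cells. A gene was called where edgeR's quasi-likelihood test gave a Benjamini-Hochberg adjusted p under 0.05 over the 14557 genes tested. Of the 10 Kruppel-like factors, 5 were called, 3 higher and 2 lower in Model, where 17.6% of all tested genes were called, 8.43% higher and 9.12% lower. None of the 10 also passed the study's threshold of an absolute log2 fold change over 1, which 1.95% of the tested genes did. Nothing is read from this or the later counts, since the list was drawn with the results known. The log2 fold change was 0.73 (SE 0.095) for KLF6, 0.69 (SE 0.17) for KLF2, 0.51 (SE 0.11) for KLF10, −0.83 (SE 0.13) for KLF15 and −0.24 (SE 0.074) for KLF3. KLF7 and KLF11 were level, at 0.01 (95% interval −0.18 to 0.19) and 0.03 (−0.23 to 0.29). Con replicate 1 bears on KLF2, whose log2 fold change was 1.05 without it, and without it KLF4 and KLF13 were also called, at −0.86 and −0.29. KLF3 was not called without Con replicate 2 or 3 or without Model replicate 2 or 3, at values from −0.25 to −0.20. With scaling by library totals alone KLF3 was not called either, at −0.18, and KLF5 was called, at 0.37. Markers of other cell types differed as well: the 5 endothelial markers summed to 0.162 to 0.751 CPM in Con and 1.15 to 1.45 CPM in Model, nearly all of it PECAM1, with CDH5 and KDR at 0 counts in both groups. The 5 leukocyte markers summed to 5.52 to 7.22 CPM in Con and 16.0 to 21.8 CPM in Model, most of it LYZ, and PTPRC and CD3E had no count in Con. The 5 fibroblast or stellate markers summed to 28.9 to 37.4 CPM in Con and 17.9 to 19.1 CPM in Model, with PDGFRB and LUM called lower, at −0.57 and −1.53. Their part in the levels of the Kruppel-like factors was not tested.

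The comparisons of each dose of fucoxanthin with Model ask which of these differences the compound changes, and they share the 3 Model libraries with each other and with the comparison above. At 0.5 μM, 4 of the 10 genes were called, all lower, where 1.45% of the tested genes were called and 1.16% were called lower. With the fold threshold there were 2, KLF2 and KLF6, against 0.268% of the tested genes. The log2 fold change was −2.05 (SE 0.18) for KLF2, −1.07 (SE 0.096) for KLF6, −0.97 (SE 0.11) for KLF10 and −0.56 (SE 0.13) for KLF11. KLF11 lost its call without Model replicate 2 or 3 or without FUCO-0.5 replicate 1 or 3, at values from −0.60 to −0.48. KLF15 was near Model, with −0.14 and a 95% interval from −0.42 to 0.14. KLF4 had −0.74 with an interval from −1.46 to −0.02 and was not called.

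At 1 μM, 5 of the 10 genes were called, all lower, where 3.21% of the tested genes were called and 2.32% were called lower. With the fold threshold there were 3, KLF2, KLF6 and KLF10, against 0.495%. KLF2 had a log2 fold change of −2.74 (SE 0.19), KLF6 of −1.67 (SE 0.098), KLF10 of −1.13 (SE 0.11) and KLF11 of −0.78 (SE 0.13). KLF7 followed with −0.38 (SE 0.091), and lost its call without Model replicate 1 or 2 or without FUCO-1 replicate 3, at values from −0.38 to −0.34. KLF3 and KLF13 were near Model, at −0.02 (95% interval −0.17 to 0.13) and −0.07 (−0.24 to 0.10). KLF4 had −0.67 with an interval from −1.39 to 0.04 and was not called. KLF15 was above Model in every library, with a log2 fold change of 0.37 (SE 0.13), but was not called. It was called at 0.37 in the fit of 2 groups only and at 0.38 without the filter on low counts.

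At 2 μM, 6 of the 10 genes were called, 1 higher and 5 lower, where 20.5% of the tested genes were called, 10.8% higher and 9.71% lower. With the fold threshold there were 2, KLF2 and KLF6, against 1.6%. KLF15 was the higher one, with a log2 fold change of 0.94 (SE 0.13). The lower ones were KLF2 with −2.12 (SE 0.18), KLF6 with −1.27 (SE 0.097), KLF11 with −0.72 (SE 0.13), KLF7 with −0.52 (SE 0.092) and KLF10 with −0.48 (SE 0.11). KLF4 had 0.63 with a 95% interval from 0.01 to 1.25 and was not called, but was called at 0.64 without the filter on low counts. KLF3 had −0.17 with an interval from −0.32 to −0.02 and was not called. At this dose the hepatocyte markers summed to 35082 to 39385 CPM, against 51948 to 52424 CPM in Model and 62626 to 70524 CPM in Con, and their part in the levels of the Kruppel-like factors was not tested.

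With RES, 9 of the 10 genes were called, 2 higher and 7 lower than in Model, where 49.4% of the tested genes were called, 24.4% higher and 25.1% lower. With the fold threshold there were 3, KLF4, KLF7 and KLF11, against 9.91%. KLF4 had a log2 fold change of 1.52 (SE 0.28) and KLF10 of 0.53 (SE 0.11). The lower ones were KLF11 with −1.14, KLF7 with −1.12, KLF15 with −0.96, KLF6 with −0.79, KLF3 with −0.63, KLF13 with −0.52 and KLF2 with −0.39. KLF2 held its call in 11 of 26 alternatives, and its value over all 26 ran from −0.50 to −0.26. It lost it when any 1 Model library was left out, at −0.43 to −0.33, and without RES replicate 1 or 3, at −0.33 and −0.36. It also lost it when any 1 library of FUCO-0.5 or FUCO-1 or FUCO-2 replicate 3 was left out, at −0.39 each, and with DESeq2, at −0.39, upper quartile factors, at −0.38, and library totals alone, at −0.26. KLF5 was near Model at 0.10 (95% interval −0.15 to 0.36). The hepatocyte markers summed to 15164 to 15573 CPM with RES, and 8 of the 9 were called lower than in Model, ALB with 33912 CPM in Model and 7528 CPM in RES, while FGB was called higher, at 0.42. Of the other markers, PDGFRB had a log2 fold change of −3.39, CD14 of 1.71, LYZ of −1.40, PECAM1 of −0.92 and LUM of 0.75, all called. The part of any of these in the levels of the Kruppel-like factors was not tested.

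**Figure D4:**
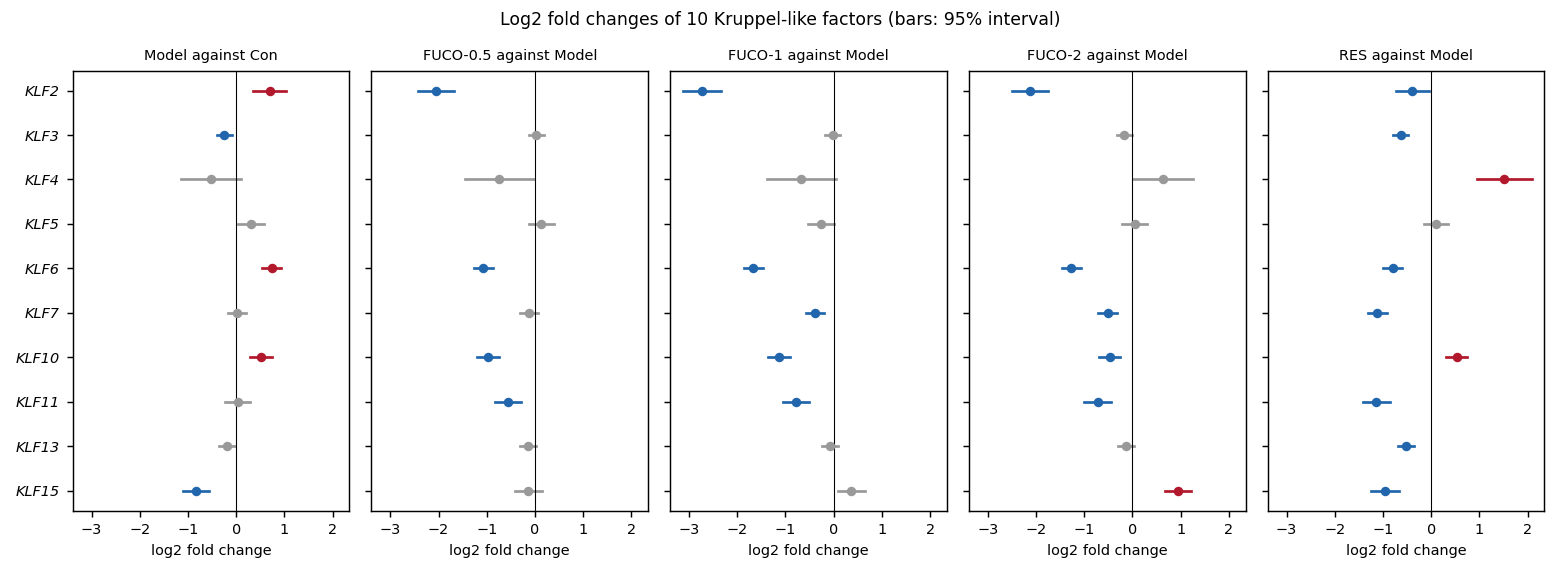
Log2 fold changes (horizontal axis) of the 10 Kruppel-like factors in 5 comparisons, with bars for the 95% interval of each fitted value. Red marks genes called higher, blue genes called lower and grey genes not called at an adjusted p under 0.05. KLF2, KLF6, KLF10 and KLF11 are blue at every dose of fucoxanthin, and KLF15 is red at 2 μM only.

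The doses were also compared with each other, with the Model libraries entering only through the spread shared by all groups. Between 0.5 and 1 μM edgeR called 1 of 14557 genes, 0.00687% of those tested, and it was KLF6, with a log2 fold change of −0.60 (SE 0.096) in FUCO-1 against FUCO-0.5. It lost its call without FUCO-0.5 replicate 1 or 2, with any 1 FUCO-1 library left out and without Model replicate 3, at values from −0.61 to −0.53. The number of genes called depended on the method, with 53 for DESeq2, 20 for edgeR on 2 groups only, 20 without Con replicate 1 and 144 without a filter on low counts. KLF2 had −0.69 (SE 0.21) in the same comparison, and was called only in the fit of 2 groups and without the filter. Between 1 and 2 μM, 4 of the 10 genes were called and all were higher at 2 μM, where 6.3% of the tested genes were called and 4.07% were called higher. With the fold threshold there was 1, KLF4, against 0.577%. These were KLF4 with 1.30 (SE 0.33), KLF10 with 0.65 (SE 0.11), KLF15 with 0.57 (SE 0.13) and KLF6 with 0.40 (SE 0.096). KLF4 lost its call without FUCO-1 replicate 1 or 3 or FUCO-2 replicate 3, at 1.24, 1.16 and 0.98. KLF6 lost it without FUCO-1 replicate 3 or FUCO-2 replicate 2, at 0.38 and 0.36. KLF2 had 0.61 (SE 0.21) and was not called, but was called at 0.62 without Con replicate 1 and at 0.61 in the fit of 2 groups and without the filter.

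Against Con, KLF2 had log2 fold changes of −1.36, −2.04 and −1.43 at 0.5, 1 and 2 μM, and KLF6 of −0.34, −0.94 and −0.53. Both were thus lower with fucoxanthin and FFA than in the control, and were called lower at each dose. KLF10 had −0.46, −0.62 and 0.03, and KLF15 had −0.97, −0.46 and 0.11, so that at 2 μM both were near Con. These were called lower at 0.5 and 1 μM and not called at 2 μM. With RES the values were 1.03 for KLF10, 0.99 for KLF4, 0.30 for KLF2, −0.06 for KLF6 and −1.79 for KLF15. Of these, KLF10 and KLF4 were called higher and KLF15 lower, and KLF2 and KLF6 were not called. Against Con, 9, 9 and 7 of the 10 genes were called at 0.5, 1 and 2 μM, and 8 with RES. Of all tested genes, 21.9%, 18.3%, 24.8% and 57.3% were called in these comparisons.

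The 10 genes were compared with other members of the wider KLF and SP family, of which 17 were listed and 9 had enough counts to be tested. Of these 9, 4 were called in Model against Con, 1 at 1 μM, 2 at 2 μM and 5 with RES. The shares of all tested genes called there were 17.6%, 3.21%, 20.5% and 49.4%, and 1.45% at 0.5 μM. At 0.5 μM edgeR called 0 of 9, with 2 at an unadjusted p under 0.05, while DESeq2 called 2. The share of all tested genes that DESeq2 called there is not given here. KLF9, a SIN3A-binding repressor known to be induced by glucocorticoids and thyroid hormone, was left out of the chosen genes. It had 9.32, 9.57 and 10.1 CPM in Model and 44.5, 42.0 and 37.6 CPM in RES, far apart and without overlap. Its rise with RES was 2.10 on the log2 scale (SE 0.10, adjusted p = 2.12e-14, edgeR's quasi-likelihood test), where the highest value among the 10 chosen genes was the 1.52 of KLF4. It also rose in Model against Con, by 0.70 (SE 0.12, adjusted p = 0.000184), and fell at 2 μM by 0.39 (SE 0.12, adjusted p = 0.0179, edgeR). The call at 2 μM was lost without Model replicate 3 and without FUCO-2 replicate 2 or 3. The value there ran from −0.47 to −0.34 over all 26 alternatives.

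SP5, a repressor induced by Wnt signalling, was lower in Model than in Con and higher at 2 μM than in Model, the same directions as KLF15. On the log2 scale it differed by −0.61 (SE 0.15, adjusted p = 0.0058) in Model against Con, 0.64 (SE 0.15, adjusted p = 0.00381) at 2 μM and −0.71 (SE 0.16, adjusted p = 0.000826) with RES, by edgeR's quasi-likelihood test. SP8, a limb and brain development factor, fell in Model by 0.59 (adjusted p = 0.000318), at 1 μM by 0.62 (adjusted p = 0.00162) and with RES by 0.78 (adjusted p = 3.4e-06), by the same edgeR test. It was not called against Model at 0.5 μM, at −0.43, or at 2 μM, at −0.13. In FUCO-2 against FUCO-1 it was called higher, at 0.49.

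**Figure D5:**
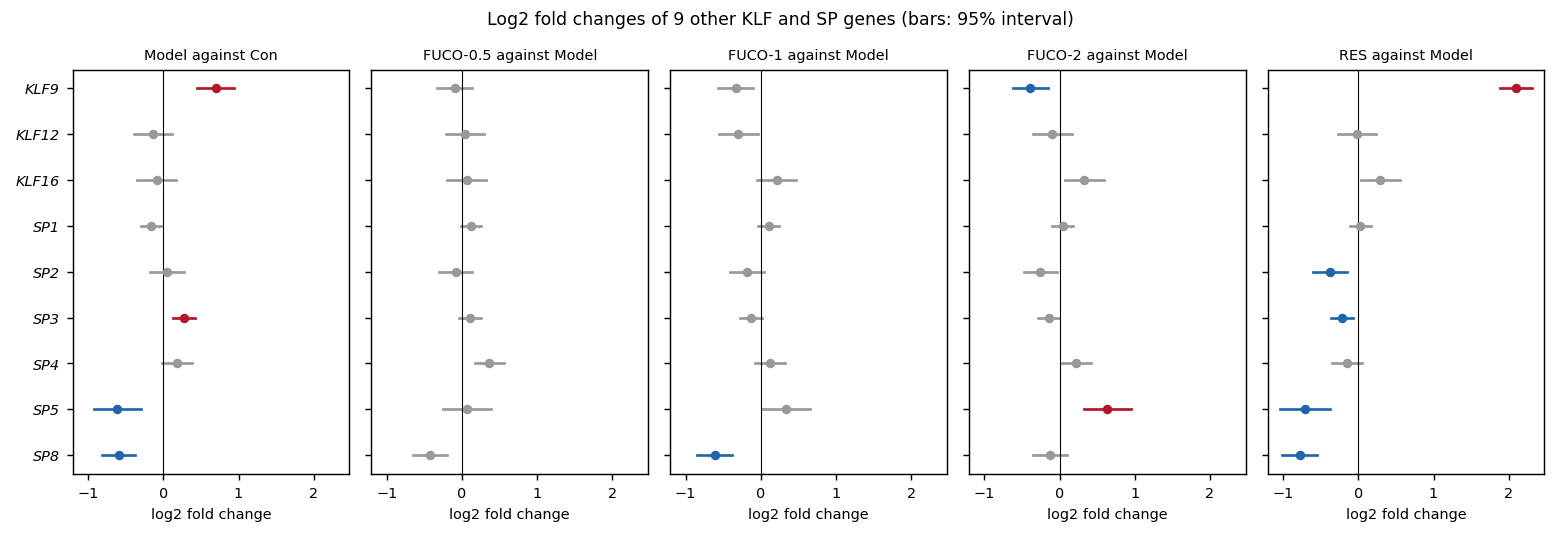
Log2 fold changes (horizontal axis) of the 9 tested KLF and SP genes outside the 10 chosen ones in 5 comparisons, with bars for the 95% interval. Red marks genes called higher, blue genes called lower and grey genes not called. KLF9 with RES, at 2.10, is the largest value shown.

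A further 53 genes that act with Kruppel-like factors were listed as cofactors and ubiquitin ligases, upstream kinases and factors, and genes described as targets, and 49 were tested. Of these, 15 were called in Model against Con, 8 higher and 7 lower, then 2 at 0.5 μM and 3 at 1 μM, all lower, 9 at 2 μM, 4 higher and 5 lower, and 29 with RES, 6 higher and 23 lower. Of all tested genes, 17.6% were called in Model against Con, 8.43% higher and 9.12% lower. At 0.5 and 1 μM 1.45% and 3.21% were called, 1.16% and 2.32% lower. At 2 μM 20.5% were called, 10.8% higher and 9.71% lower, and with RES 49.4%, 24.4% higher and 25.1% lower. No result about the pathway is read from these counts. EDN1, which encodes endothelin 1 and is described as repressed by KLF2, had 4.51 CPM in Con and 9.10 CPM in Model and was lower again in FUCO-1 with 4.05 CPM. The difference on the log2 scale was 1.01 (SE 0.22, adjusted p = 0.00204) in Model against Con and −1.17 (SE 0.22, adjusted p = 0.00218) at 1 μM, by edgeR's test. EDN1 was also called lower at 0.5 and 2 μM, by −0.92 and −0.71, calls that held in 22 and 24 of 26 alternatives. A link between EDN1 and KLF2 was not tested. MEF2C, which encodes a factor that binds the motif marked in the KLF2 promoter, rose in Model by 0.62 (SE 0.17, adjusted p = 0.0131, edgeR), a call lost without Con replicate 3 or Model replicate 2. It was among the 6 upstream genes called there, 2 higher and 4 lower. MEF2C was not called against Model at any dose of fucoxanthin, and its part in the level of KLF2 was not tested. Of the kinases on the upstream list, MAP2K5 was called higher at 2 μM, at 0.42, and with RES, at 0.51. MAPK7 was called lower with RES, at −0.69. At 2 μM 1 upstream gene was called higher and 2 lower, and with RES 2 higher and 8 lower.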

How the data were processed

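Poly(A) RNA of Hep3B cells was sequenced in 18 libraries, grouped by their titles into 6 groups of 3. Columns of the table were matched to samples by the library names in the labels. The deposited values are raw counts per gene, which the authors made with featureCounts from STAR alignments to GRCh38.p14 after fastp had cleaned the reads. The strand setting and the handling of reads with several matches are not given in the sources used here, so overlapping genes and paralogs are uncertain. Reads carry no molecular identifiers.

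The counts were fitted in R 4.3.3 with edgeR 4.0.16 (filterByExpr with a minimum count of 10 and a minimum total of 15, TMM scaling, prior count 0.125), with group as the only factor and the 18 libraries in a single quasi-likelihood fit. P-values were adjusted by Benjamini-Hochberg over 14557 genes and called under 0.05. DESeq2, the tool of the study, was an alternative in version 1.42.0. The 10 genes, the lists and the tests were chosen with earlier results of these data known, and the promoter motifs after the levels had been seen. The lists outside the 10 genes were written from general knowledge, without looking at how their genes moved. The genes named from them were picked by call and size of change. Their adjusted p-values therefore describe the fit and are no independent support. Outside the 10 genes, at most the 4 called genes of each list with the largest absolute log2 fold change could be named per comparison, and in the list of genes like a given member the 3 with the highest Pearson's r. Exon lengths came from GENCODE v44, positions and promoters from RefSeq. Alternatives were other scalings, other filters, fits of 2 groups, a replicate block, the study's fold threshold and leaving out each library. Replicates differed by more than counting noise in every group, so none was merged. The fit was tested on simulated counts with 2-fold and 4-fold changes in Model, in genes above 1 CPM. It recovered 192 of 200 changed genes in 14557, 92 at 2-fold and 100 at 4-fold, and made 17 other calls. Smaller changes were not simulated, so this does not cover the many calls of the 10 genes under 2-fold. All groups were simulated at the Con level apart from the 200 genes in Model. In the data 17.6% of the tested genes were called in Model against Con, so scaling under that many changes was not tested. 1 listed target gene is not reported here.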

Additional observations from a re-analysis of the deposited data

How the results depend on the processing

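Each value of the 10 genes was recomputed under 26 alternatives, which do not include the study's fold threshold, described below. Of these, 18 each left out 1 library, in each comparison most often a library of neither group compared. Of their 29 calls in the comparisons of Model with Con and of the treatments with Model, 25 held in all of them, and the exceptions were KLF3 in Model against Con (21 of 26), KLF11 at 0.5 μM (22), KLF7 at 1 μM (23) and KLF2 with RES (11). Over all 11 comparisons, with those between doses and against Con, 49 of 67 calls held in all alternatives, among them 5 of 9, 5 of 9 and 5 of 7 at 0.5, 1 and 2 μM against Con. At these doses 21.9%, 18.3% and 24.8% of all tested genes were called against Con. No called value of these genes changed sign. A scaling by library totals alone moved the median of all genes by 0.13 in RES against Model, and the share of higher calls from 48.0% to 66.6% in Model against Con. At 0.5 μM this share was 19.9% and became 34.4%, at 1 μM 27.8% became 39.0%, at 2 μM 52.7% became 67.8%, with RES 49.3% became 66.6%, and in FUCO-2 against FUCO-1 64.7% became 76.7%. With library totals alone, 14 values of the 10 genes moved by more than the spread of replicates, and the cause was not tested. In FUCO-1 against FUCO-0.5, where edgeR called 1 gene, lower, DESeq2 called 27 higher and 26 lower, the fit of 2 groups 7 and 13, no filter on low counts 88 and 56, the replicate block 1 and 7, and library totals alone 0 and 2. Leaving out 1 library gave 0 to 20 genes there: 20 without Con replicate 1, 7 without FUCO-0.5 replicate 3 or FUCO-2 replicate 1, 4 without FUCO-2 replicate 3, 2 without FUCO-1 replicate 2 or RES replicate 3, and 0 without Model replicate 3, FUCO-0.5 replicate 1 or FUCO-1 replicate 1 or 3.

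With the study's fold threshold, which only removes calls, 0, 2, 3, 2, 3 and 1 of the 10 genes were called in Model against Con, FUCO-0.5, FUCO-1, FUCO-2 and RES against Model and FUCO-2 against FUCO-1. Of all tested genes, 1.95%, 0.268%, 0.495%, 1.6%, 9.91% and 0.577% were called there, in the same order. Of the other KLF and SP genes, 0, 0, 0, 0 and 1 were left in the first 5 of these comparisons, and of the pathway genes 1, 0, 1, 0 and 4. At 0.5 μM, where edgeR called 0 of the other KLF and SP genes, 2 were called with DESeq2, with 2 groups only and without a filter, and 1 with upper quartile factors, library totals alone or at least 10 counts in every library. At 2 μM, library totals alone gave 4 of them, and at 1 μM a fit of 2 groups gave 6 pathway genes. The cause was not tested.

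Leaving out 1 library at a time gave 2 to 5 of the 10 genes in FUCO-2 against FUCO-1, with 2 without FUCO-1 replicate 3, and 4 to 7, 3 to 4, 4 to 5, 6 and 8 to 9 in the 5 comparisons before it. For the other KLF and SP genes it gave 0 to 2 at 0.5 μM and 1 to 4 at 2 μM, with 1 without Model replicate 3 and 4 without FUCO-2 replicate 1. For the pathway genes it gave 7 to 16 in Model against Con, with 7 without Con replicate 3 or Model replicate 1 and 8 without Model replicate 2. At 0.5 μM it gave 0 to 3, with 1 without Model replicate 1 and 0 without Model replicate 2 or 3 or FUCO-0.5 replicate 1 or 3. At 1 μM it gave 1 to 5, with 1 without Model replicate 1 or 2 or FUCO-1 replicate 3 and 5 without FUCO-2 replicate 1.

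Pairing by replicate number in the titles was not excluded. Deviations of same-numbered libraries correlated from −0.20 to 0.19 over 45 pairs, 7 over 0.1. Of 18 libraries, 10 were closest to their own number. With a replicate block 5, 4, 5, 6, 9 and 4 of the 10 genes were called, as without it. The other KLF and SP genes called were 4, 0, 1, 2 and 6, and the pathway genes 14, 2, 3, 10 and 28.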

Other observations

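Among genes described as targets of Kruppel-like factors, CDH1, which encodes E-cadherin, fell at 2 μM by 0.60 (SE 0.068, adjusted p = 1.14e-06, edgeR), from 349 to 231 CPM.

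With RES, cell cycle inhibitors on the same list differed in direction. CDKN1A, which encodes p21, rose from 20.6 to 47.1 CPM, a log2 difference of 1.19 (SE 0.14, adjusted p = 1.68e-07, edgeR), while CDKN1C, which encodes p57, fell from 171 to 32.0 CPM, by 2.42 (SE 0.11, adjusted p = 1.1e-14, edgeR). TGFBR2, a TGFβ receptor, and SMAD3, its signal transducer, fell by 0.75 (adjusted p = 6.81e-09) and 0.48 (adjusted p = 8.13e-07), by edgeR. WWP1, a ubiquitin ligase that acts on Kruppel-like factors, fell by 0.52 (SE 0.079, adjusted p = 6.58e-06, edgeR). These named calls with RES held in all 26 alternatives.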
